A study of Mus musculus with 24 samples.

Results

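Aminoacyl-tRNA synthetases are the enzymes that join each amino acid to its transfer RNA. Their genes were taken by symbol from the array annotation: every probe set with exactly 1 gene symbol that follows the naming of this family was kept, and the symbol alone decided membership, with no measured value. The rule found 35 probe sets of 34 genes, out of 19938 genes tested. Of these, 16 encode enzymes of the cytosol, 16 encode enzymes of the mitochondrion, and Gars and Kars each supply both places from 1 gene. Iars had 2 probe sets, and the brighter one was used. Synthetase genes outside these 34 were not analysed here.

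Expression was measured on 24 gene arrays in CD4 T cells of the 129SvEv strain, either wild type (WT) or lacking Batf and Batf3 (Batf1/3DKO, called DKO here). Batf and Batf3, transcription factors of the AP-1 family, act on shared sites with Irf4, and the title of the series asks how the strength of T cell receptor signalling is read through them. Each genotype had 4 groups of 3 arrays: naive cells left unstimulated (day 0), cells after 2 days of culture (day 2), and cells after 4 days of culture with 2.2 or with 10 ng/ml of anti-CD3e, which stimulates the receptor. All cultured groups shared TH2-polarising conditions and anti-CD28, which was held by an antibody bound to the plate. The day 2 dose of anti-CD3e is not stated, so comparisons of day 4 with day 2 may combine time and dose. The labels name neither the origin of the replicates (mice or cultures) nor the cells in which both factors were deleted. A p-value here reflects only how far these samples scatter, and that scatter may be technical.

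A synthetase first activates its amino acid with ATP and then loads it onto the matching tRNA, and many of these enzymes edit wrongly loaded tRNA. In mammals the cytosolic enzymes for several amino acids, with 3 scaffold proteins (Aimp1, Aimp2 and Eef1e1), form a large multi-tRNA synthetase complex, while the mitochondrial enzymes are encoded by separate nuclear genes and serve translation of the mitochondrial genome. T cells that leave the naive state enlarge and raise protein synthesis before they divide. Transcription of many cytosolic synthetase genes is also known to be raised by ATF4, the factor made when amino acids run short or other stress slows translation, and 11 of the 18 genes for cytosolic or shared enzymes stood in a list of such genes written from general knowledge, with earlier results of these data known.

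Promoter sequence is shown because several members moved together with activation and with dose, described below. RefSeq windows (GRCm38.p6, 250 bases before to 50 bases after an annotated start) were found for 25 of the 34 genes. The letters TGATGNAA, the form of the element read by ATF4 with a C/EBP partner, were searched on both strands. They stood in 4 of 11 windows of cytosolic or shared enzymes, in 0 of 14 of mitochondrial enzymes, and in 4.51% of all 27025 genes with a window. The 4 matches are shown in capitals, each read 5′ to 3′ along its gene's strand, at position 7 for Iars, -15 for Tars, 3 for Yars and -30 for Gars relative to the annotated start.
Iars, isoleucine, chr13:49682126-49682155, plus strand: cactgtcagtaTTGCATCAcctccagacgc
Tars, threonine, chr15:11399655-11399684, minus strand: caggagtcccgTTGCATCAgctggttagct
Yars, tyrosine, chr4:129189895-129189924, plus strand: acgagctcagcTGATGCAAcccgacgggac
Gars, glycine, chr6:55037960-55037989, plus strand: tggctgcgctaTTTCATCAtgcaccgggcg
In Iars and Yars the match lay just inside the transcribed part, in Tars and Gars just before the start, and in Iars, Tars and Gars it ran in reverse. All 4 genes were in the ATF4-responsive list, where 7 of the 11 had a window. The E-box CACGTG, which MYC binds, stood in the windows of Farsb, Iars, Tars and Ears2, that is 3 of 11 and 1 of 14, against 8.09% of all genes. The letters TGANTCA, bound by AP-1 and by BATF with JUN partners, stood in 1 of 11 windows of cytosolic or shared enzymes and in 0 of 14 mitochondrial ones, against 8.97% of all genes. The single match, in Qars, began at -82.
Qars, glutamine, chr9:108507912-108507940, plus strand: cgctcgctctcTGACTCAtaaatggcgtt
A match describes these letters in this window and is not a measured binding site.

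Levels are array intensities made by the authors with RMA, on a linear scale, and are compared only within a gene. The median probe set of the array had a mean intensity of 28.6, and a level near it may be background. All 16 cytosolic members lay above it, with mean intensities of 121 to 555, as did Gars and Kars. Of the 16 mitochondrial members 15 lay above it, with 28.5 to 161, and Aars2, the mitochondrial alanine enzyme, did not. Folds are limma estimates followed by a 95% confidence interval (CI), log2 changes carry their standard error, and a gene is said to have risen or fallen where its adjusted p was under 0.05 over all 19938 genes. Arrays of 1 group correlated at 0.983 to 0.992 over all genes. Batf was lower on every DKO array (highest mean 46.5 ± 4.87, in the 10 ng/ml group) than on every WT array (lowest mean 135 ± 20.9, at day 0), and Batf3 stood clear of background only in WT cells with 10 ng/ml, at 156, 173 and 109.7. All 5 measured T cell markers were above background in every group, while 0 of 6 myeloid and 0 of 3 NK cell markers were above it in any group. Other lists were less clear. Of 2 CD8 T cell markers 1 was above background in every group, as were 1 to 3 of 5 dendritic and 0 or 1 of 4 B cell markers. Of 4 granulocyte markers 2 were above it at DKO day 0 (summed level 73.0 to 122 per array) and 0 elsewhere. The 1 erythroid marker was above it at WT day 0, WT day 2 and DKO day 0 and not elsewhere. Its level ran from 18.7 to 33.1 over all arrays.

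Activation for 2 days raised every cytosolic synthetase gene in WT cells. All 16 rose between day 0 and day 2, against 19.7% of all genes, and in all 16 every day 2 array was above every day 0 array, as in 22.0% of all genes. Their median log2 change was 1.53, a fold change of 2.88, where the median over all genes was -0.11. Normalising the values again by cyclic loess or quantiles moved the median of all genes by 0.14 on the log2 scale and gave cytosolic medians of 1.21 and 1.28, with all 16 higher in both. Gars and Kars rose too. Among the 16 mitochondrial members 6 rose, 2 fell (against 20.5% of all genes falling) and 8 did not pass the test, with a median log2 change of 0.27. The cytosolic mean over members (a geometric mean) stood at 148, 163 and 132 on the 3 WT day 0 arrays and at 391, 411 and 395 on the day 2 arrays. The same summary for the mitochondrial members was 66.0, 66.6 and 66.6 at day 0 and 78.9, 77.1 and 79.4 at day 2.

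**Figure D1:**
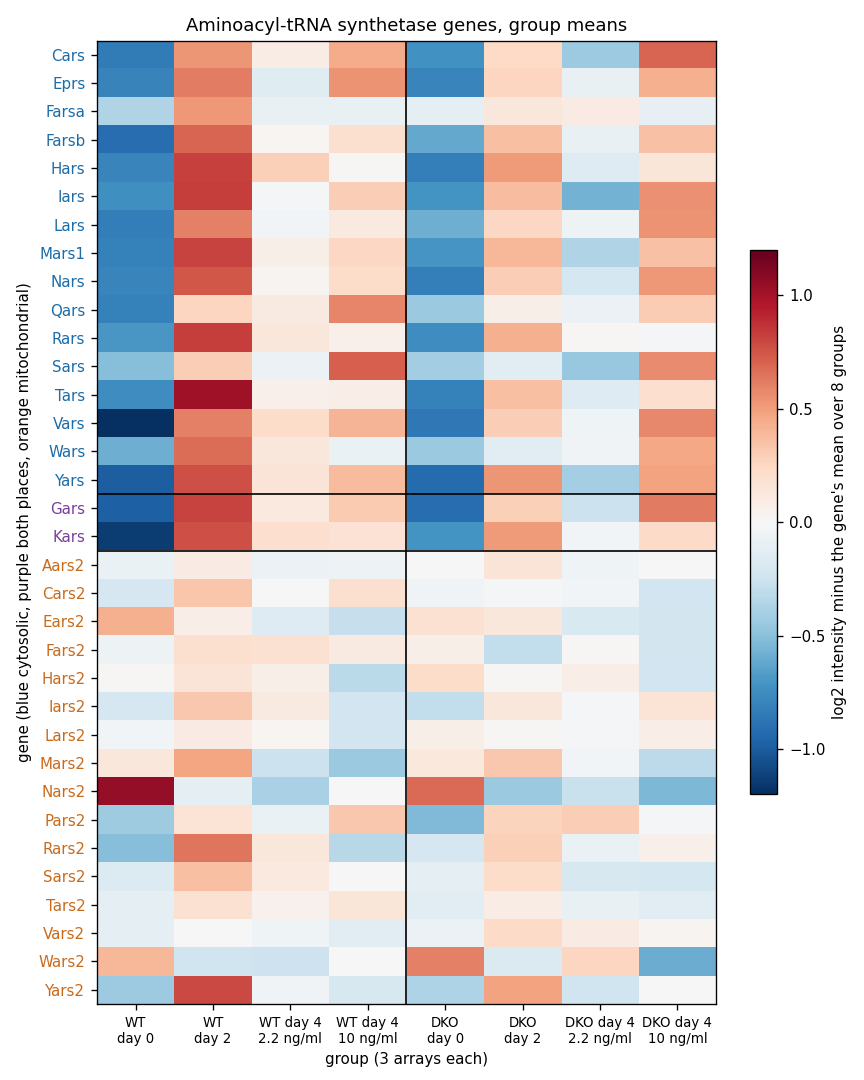
Mean log2 intensity of each of the 34 genes in the 8 groups (columns, 3 arrays each), shown as the difference from the gene's own mean over the 8 groups (colour, red above and blue below). The cytosolic genes (upper block) and Gars and Kars are red at WT day 2, their highest group for 13 of 16 and for both, and the mitochondrial genes (lower block) show weaker and mixed colours.

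Vars, the valine enzyme of the cytosol, read 80.5, 78.3 and 92.6 at WT day 0 and 287, 326 and 265 at day 2. Every day 2 array was far above every day 0 array, and the gene rose 3.50-fold (95% CI 2.92 to 4.18, adjusted p = 2.33e-11). Tars, the threonine enzyme, read 95.2, 99.1 and 112 at day 0 and 314, 372 and 355 at day 2. Its groups were as clearly apart, and it rose 3.40-fold (95% CI 2.60 to 4.44, adjusted p = 3.18e-08). Yars, the tyrosine enzyme, read 88.1, 94.4 and 70.8 and then 286, 328 and 245, with no overlap, and rose 3.39-fold (95% CI 2.78 to 4.14, adjusted p = 2.13e-10). Kars, whose lysine enzyme serves cytosol and mitochondrion, read 97.0, 124 and 103 and then 405, 392 and 411. It had the greatest rise of the 34 genes, 3.75-fold (95% CI 3.02 to 4.67, adjusted p = 2.84e-10). Gars, the glycine enzyme of both places, read 219.8, 239.7 and 169 and then 698, 743 and 710.4, again without overlap, and rose 3.46-fold (95% CI 2.80 to 4.27, adjusted p = 4.96e-10). The smallest rises among cytosolic members were those of Sars, the serine enzyme, at 1.74-fold, and Farsa, the alpha subunit of the phenylalanine enzyme, at 1.84-fold. Farsb, its beta subunit, rose 3.05-fold in the same comparison. None of these calls was lost under any of the 15 alternatives run for each gene. The summed level of the 5 T cell markers was lower at day 2 (3031 to 3295 per WT array) than at day 0 (6093 to 7638), and its part in the result was not tested. In RNA pooled over many cells, fewer cells of a type and less of these RNAs per cell cannot be told apart.

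The mitochondrial members did not move as a block. Yars2, the mitochondrial tyrosine enzyme, read 92.7, 100.2 and 56.1 at WT day 0 and 167, 196 and 203 at day 2. The groups did not overlap, and it rose 2.34-fold (95% CI 1.68 to 3.26, adjusted p = 0.000133). Rars2, the mitochondrial arginine enzyme, read 114, 135 and 92.7 and then 231, 243 and 282, also apart, and rose 2.22-fold (95% CI 1.66 to 2.99, adjusted p = 6.46e-05). Pars2, the mitochondrial proline enzyme, lay near background at day 0 with 32.3, 34.3 and 21.9 and read 43.8, 46.0 and 40.6 at day 2. Its rise of 1.50-fold (95% CI 1.13 to 1.99, adjusted p = 0.0214) was lost without day 0 replicate 3 (adjusted p = 0.164), day 2 replicate 1 (0.0514) or day 2 replicate 2 (0.0667). Cars2, Iars2 and Tars2 rose by 1.45-fold, 1.43-fold and 1.22-fold. The call of Iars2 was lost without day 2 replicate 1 (adjusted p = 0.0571), and that of Tars2 in 11 of 15 alternatives, including the loss of any 1 of the 6 arrays (adjusted p = 0.059 to 0.114).

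Wars2 and Nars2 ran the other way. Wars2, the mitochondrial tryptophan enzyme, read 63.8, 53.3 and 80.3 at WT day 0 and 39.9, 45.1 and 40.2 at day 2. Every day 2 array was lower, and the fall was 1.56-fold (95% CI 1.19 to 2.03, adjusted p = 0.00785), not passing without day 0 replicate 3 (adjusted p = 0.0646). Nars2, the mitochondrial asparagine enzyme, read 126, 98.7 and 248 at WT day 0 and 80.3, 46.0 and 75.6 at day 2. Replicate 3 of day 0 stood far above the other arrays, and so did replicate 3 of DKO day 0 (77.0, 73.3 and 253). Nars2 fell 2.23-fold (95% CI 1.28 to 3.87, adjusted p = 0.0189) in WT cells, and the call was lost without day 0 replicate 3 (adjusted p = 0.150) or day 2 replicate 2 (0.103). Without that day 0 array only 4 mitochondrial members were called, all higher, in place of 8. For 16 pairs of a cytosolic and a mitochondrial enzyme for the same amino acid, the cytosolic gene had the higher log2 change, sign included, in all 16 pairs at WT day 2. Some genes were used again: Fars2 was paired with both Farsa and Farsb, and Eprs with both Ears2 and Pars2. Qars and Aars2 stood in no pair. Mitochondrial members also read dimmer, with a median intensity of 68.9 against 231 for cytosolic members. The part of this in the pair result was not tested. The tryptophan enzymes show the contrast: Wars rose 2.39-fold while Wars2 fell 1.56-fold.

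DKO cells raised the same class at day 2. Of the 16 cytosolic members 13 rose, against 15.3% of all genes, with a median log2 change of 1.07, and Gars and Kars rose as well. Vars read 107, 104 and 107 at DKO day 0 and 276, 242 and 195 at day 2, without overlap, and rose 2.22-fold (95% CI 1.85 to 2.65, adjusted p = 8.01e-08). Yars read 88.0, 86.2 and 87.9 and then 203, 255 and 270.4. It had the greatest rise of the class, 2.76-fold (95% CI 2.26 to 3.36, adjusted p = 8.21e-09). Hars, the histidine enzyme, read 142, 180.2 and 143 and then 383, 448 and 342, also apart, and rose 2.52-fold (95% CI 1.95 to 3.26, adjusted p = 1.94e-06). Farsa, Sars and Wars did not pass the test (log2 change 0.25 ± 0.14, 0.29 ± 0.13 and 0.32 ± 0.21). Among mitochondrial members Yars2, Pars2 and Iars2 rose and Nars2 and Wars2 fell (13.3% of all genes fell). The fall of Nars2 was lost without DKO day 0 replicate 3 (adjusted p = 0.295), day 2 replicate 2 (0.0625) or day 2 replicate 3 (0.169), and the rise of Iars2 was lost without any 1 of the 6 arrays other than day 2 replicate 2 (adjusted p = 0.0523 to 0.259). The count of 5 calls was 3 without day 0 replicate 3 or day 2 replicate 3, and was 2 higher and 3 lower without replicate 1 of either group. The cytosolic gene had the higher log2 change, sign included, in 15 of 16 pairs, the exception being Sars and Sars2. The summed level of the 5 T cell markers went from 6684 to 7418 per array at DKO day 0 to 3965 to 4545 at day 2, and its part in the result was not tested.

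At day 2 itself the cytosolic levels were lower in DKO than in WT cells in every estimate, but few passed the test. All 16 log2 differences (DKO minus WT) were negative, with a median of -0.37 where the median of all genes was 0.04, and in 12 the arrays of the genotypes did not overlap, where 11.0% of all genes had every DKO array below every WT array. Wars and Nars were called lower, 2 of 16 against 1.68% of all genes. Nars, the asparagine enzyme, read 919, 944 and 928 in WT and 649, 693 and 699.9 in DKO cells. The DKO arrays were all lower, by 1.37-fold (95% CI 1.17 to 1.60, adjusted p = 0.0231). Wars, the tryptophan enzyme, which interferon is known to induce, read 259, 221 and 239 in WT and 176, 152 and 98.4 in DKO cells. All DKO arrays were lower, replicate 3 most of all, and the difference was 1.73-fold (95% CI 1.28 to 2.35, adjusted p = 0.0419). The call of Nars was lost when any 1 of the 6 arrays was left out (adjusted p = 0.0564 to 0.0861), and that of Wars when any 1 of them other than DKO replicate 1 was left out (adjusted p = 0.0673 to 0.247). Tars and Gars lay just outside the threshold, with log2 differences of -0.66 ± 0.19 (adjusted p = 0.0574) and -0.53 ± 0.15 (adjusted p = 0.0551). Among mitochondrial members 0 of 16 were called by limma, with 2 at an unadjusted p under 0.05 (16.3% of all genes), and 1 was called without DKO replicate 1. The summed T cell markers were higher in DKO (3965 to 4545 per array) than in WT cells (3031 to 3295) at this time. So were the summed B cell markers, at 71.6 to 85.1 against 51.0 to 62.5 (1 and 0 of 4 above background), and the summed dendritic cell markers, at 141 to 224 against 115 to 137 (1 of 5 above background in each). The part of these lists in the differences was not tested.

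Whether activation itself differed between genotypes was tested by the interaction of day 2 and genotype. All 16 cytosolic estimates were negative, with a median of -0.51 on the log2 scale, so the rise was estimated as smaller in DKO cells. After cyclic loess and quantile normalisation the median was -0.38 and -0.39. In limma 0 of 16 passed the adjusted threshold, where 0.742% of all genes were called lower, and 11 of 16 had an unadjusted p under 0.05, as did 14.7% of all genes. Vars came nearest, at -0.66 ± 0.18 (adjusted p = 0.0728), and it passed without DKO day 2 replicate 1 (adjusted p = 0.0305). Its log2 difference between genotypes (DKO minus WT) was 0.35 at day 0 and -0.31 at day 2. Wars had the greatest estimate, -0.94 ± 0.30 (adjusted p = 0.137), and passed without WT day 0 replicate 2 (adjusted p = 0.017), the array that was high at day 0 (88.9, 155 and 72.4). At day 0 the genotypes had 0 of 16 cytosolic and 0 of 16 mitochondrial calls, against 0.0652% of all genes called in either direction, with 3 and 0 at an unadjusted p under 0.05 (7.1% of all genes). The day 0 estimates were nonetheless higher in DKO cells for 12 of 16 cytosolic members, with a median log2 difference of 0.095. The median over all genes was 0.0008. After cyclic loess and quantile normalisation 10 of 16 were higher in both, with medians of 0.037 and 0.067. The interaction therefore combines differences at day 0 with those at day 2. For the interaction the mitochondrial members had 0 of 16 calls in limma and 3 at an unadjusted p under 0.05.

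At day 4 most cytosolic members of WT cells were still above their day 0 level. With 2.2 ng/ml, 15 of 16 were above day 0 (16.1% of all genes rose), with a median log2 change of 0.83, and with 10 ng/ml 14 of 16 (18.4%), with a median of 1.04. These comparisons share the day 0 arrays with each other and with day 2. Vars read 229, 199 and 247 with 2.2 ng/ml and 272, 251 and 245 with 10 ng/ml, still 2.68-fold and 3.06-fold above day 0. Farsa, by contrast, did not pass at either dose, with 105, 122 and 153 and 112, 119 and 148 against 92.4, 114 and 105 at day 0, groups that overlapped. Wars was the other cytosolic gene not called at 10 ng/ml (log2 change 0.51 ± 0.21, adjusted p = 0.0612). In DKO cells 10 of 16 were above day 0 with 2.2 ng/ml (11.6% of all genes rose), with a median of 0.52, and 15 of 16 with 10 ng/ml (16.4%), with a median of 1.03. The log2 change, sign included, was higher for the cytosolic gene of a pair in 16 of 16 pairs at both doses in WT cells, and in DKO cells in 14 pairs with 2.2 ng/ml and in 16 with 10 ng/ml.

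Measured against day 2, the decline in WT cells covered most of the class. With 2.2 ng/ml 10 of 16 cytosolic members were lower than at day 2 (6.46% of all genes fell) and 0 higher (4.74%), and with 10 ng/ml 11 were lower (12.9%) and 1, Sars, was higher (10.3%). On values normalised again by cyclic loess 8 were lower and 2 higher with 10 ng/ml, and by quantiles 10 and 2. Gars and Kars were lower at both doses. The summed T cell markers were higher at day 4 (4864 to 5775 per array with 2.2 ng/ml and 4498 to 5208 with 10 ng/ml) than at day 2 (3031 to 3295), and their part in the result was not tested. Tars fell from 314, 372 and 355 at day 2 to 169, 137 and 246 with 2.2 ng/ml. The 2 groups did not overlap, although replicate 3 was well above the others, and the fall was 1.94-fold (95% CI 1.48 to 2.53, adjusted p = 0.00123). Tars read 176, 153 and 217 with 10 ng/ml, also below every day 2 array, a fall of 1.92-fold (95% CI 1.47 to 2.51, adjusted p = 0.00044). Sars went from 546, 545 and 513 at day 2 to 749, 681 and 729 with 10 ng/ml, with every day 4 array higher, a rise of 1.34-fold (95% CI 1.12 to 1.62, adjusted p = 0.017) that was lost without day 2 replicate 3 (0.0645) or 10 ng/ml replicate 1 (0.0631). In DKO cells 6 of 16 fell (2.43% of all genes) and 0 rose (3.74%) with 2.2 ng/ml, with Yars, Iars and Mars1 falling most, by 1.92-fold, 1.91-fold and 1.70-fold. Mars1 is the methionine enzyme and a member of the complex. With 10 ng/ml 0 of 16 fell in DKO cells (1.75% of all genes) and Sars alone rose (3.43% of all genes), by 1.61-fold (95% CI 1.34 to 1.94, adjusted p = 0.0017). After cyclic loess 2 rose and 1 fell there, and after quantile normalisation 1 rose and 1 fell.

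**Figure D2:**
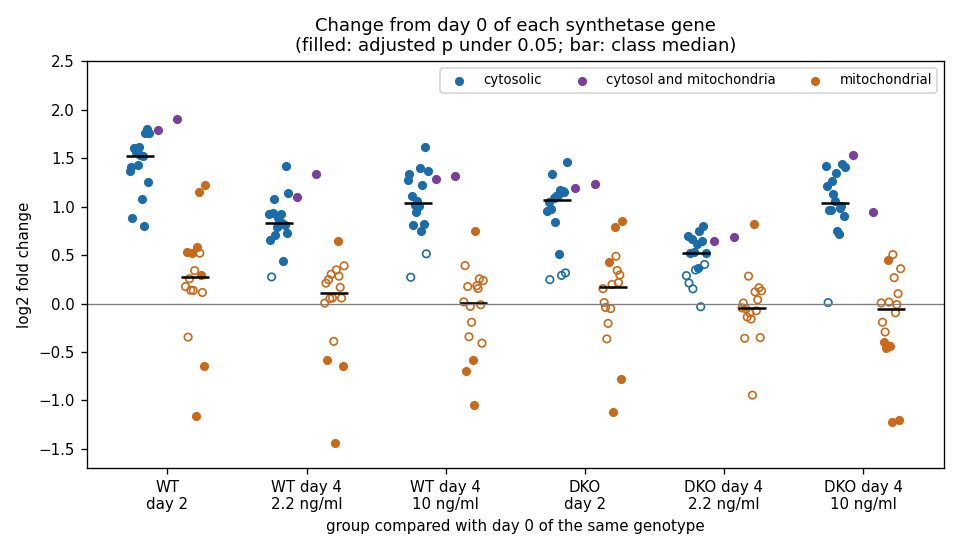
Log2 fold change from day 0 of the same genotype (vertical axis) for each synthetase gene at day 2 and at day 4 with 2.2 or 10 ng/ml of anti-CD3e (horizontal axis), with points by class, filled where the adjusted p was under 0.05, and a bar at the class median. The cytosolic medians are 1.53, 0.83 and 1.04 in WT and 1.07, 0.52 and 1.03 in DKO cells, and the mitochondrial medians stay between -0.05 and 0.27.

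Few mitochondrial members were called higher at day 4 than at day 0, although 12 of 16 log2 changes were positive in WT cells with 2.2 ng/ml, 8 in WT cells with 10 ng/ml and 7 at each dose in DKO cells. In WT cells 1 rose and 3 fell at each dose. Of all genes 16.1% rose and 13.1% fell with 2.2 ng/ml, and 18.4% rose and 18.0% fell with 10 ng/ml. Rars2 was the 1 that rose with 2.2 ng/ml and Pars2 the 1 with 10 ng/ml. Ears2, the mitochondrial glutamate enzyme, read 68.1, 70.7 and 73.8 at WT day 0 and 44.1, 43.7 and 43.1 with 10 ng/ml. All arrays at day 4 were lower, and the fall was 1.62-fold (95% CI 1.33 to 1.98, adjusted p = 0.000273). Against WT day 2, 2 of 16 mitochondrial members, Yars2 and Mars2, were lower with 2.2 ng/ml (6.46% of all genes fell). There 0 of 16 log2 changes were positive, with a median of -0.23. With 10 ng/ml 5 were lower (12.9%), namely Yars2, Rars2, Mars2, Iars2 and Hars2, with a median of -0.24, and none was higher at either dose. Yars2 and Rars2, which had risen by day 2, read 77.3, 72.1 and 153 and 127, 99.3 and 166 with 10 ng/ml. Their falls from day 2 were 1.98-fold (95% CI 1.42 to 2.76, adjusted p = 0.00238) and 1.96-fold (95% CI 1.46 to 2.63, adjusted p = 0.000904). The 4 calls with 2.2 ng/ml became 1 without day 0 replicate 3 and 2 without 2.2 ng/ml replicate 1.

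In DKO cells 1 mitochondrial member, Pars2, rose and 0 fell with 2.2 ng/ml (11.6% of all genes rose and 8.28% fell). Without DKO day 0 replicate 1 there were 1 higher and 2 lower, and without replicate 2 there were 1 and 1. With 10 ng/ml 1 rose, Iars2, and 5 fell (16.4% of all genes rose and 14.3% fell). The call of Iars2 was lost without day 0 replicate 2 (adjusted p = 0.0629) or 3 (0.0674) or 10 ng/ml replicate 1 (0.0904) or 2 (0.0528). The 5 were Nars2, Wars2, Hars2, Mars2 and Ears2, and the last 3 fell by 1.37-fold, 1.35-fold and 1.32-fold. Each of these last 3 was lost when some single arrays were left out: Hars2 without day 0 replicate 1 (0.0735) or 2 (0.0596) or 10 ng/ml replicate 3 (0.147), Ears2 without day 0 replicate 2 (0.0717) or 3 (0.209) or 10 ng/ml replicate 1 (0.195), and Mars2 without any 1 of the 6 arrays other than day 0 replicate 1 (0.0888 to 0.177). The 6 calls became 2 without day 0 replicate 2 or day 0 replicate 3 and 3 without 10 ng/ml replicate 3. On values normalised again by cyclic loess 2 rose and 2 fell there, and by quantiles 2 rose and 3 fell. In WT cells with 10 ng/ml the same steps gave 2 and 2, and 2 and 3, and in WT cells with 2.2 ng/ml 0 and 3, and 1 and 3. The call of Nars2 was lost without day 0 replicate 3 in WT cells with 2.2 ng/ml (adjusted p = 0.0603), in WT cells with 10 ng/ml (0.232) and in DKO cells with 10 ng/ml (0.188). It was also lost without WT 10 ng/ml replicate 1 (0.176) or 2 (0.0724) and without DKO 10 ng/ml replicate 3 (0.0567).

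The dose of anti-CD3e at day 4 was compared within each genotype. In WT cells 3 of 16 cytosolic members were higher with 10 than with 2.2 ng/ml, against 7.64% of all genes, and the median log2 change was 0.18. In DKO cells 10 of 16 were higher, against 4.47%, with a median of 0.56, and Gars was higher too. No cytosolic member was called lower at the higher dose in either genotype, where 7.52% of all genes fell in WT and 3.68% in DKO cells. Among mitochondrial members limma called 0 of 16 in WT cells, with 3 at an unadjusted p under 0.05 (24.9% of all genes), and 1 lower, Wars2, in DKO cells. The 0 became 1 without WT 2.2 ng/ml replicate 2 and 2 without WT 10 ng/ml replicate 3, all lower.

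Sars, Eprs and Qars were the 3 that rose with dose in WT cells. Sars read 439.7, 378 and 433 with 2.2 ng/ml and 749, 681 and 729 with 10 ng/ml. The groups were far apart, and the rise was 1.73-fold (95% CI 1.44 to 2.08, adjusted p = 8.92e-05). Eprs, the complex member that joins glutamate and proline, read 453, 416 and 586 and then 778, 724 and 812, without overlap, a rise of 1.61-fold (95% CI 1.33 to 1.94, adjusted p = 0.000545). Qars, the glutamine enzyme of the complex, whose window held the TGANTCA letters, read 142, 121 and 132 and then 183, 190.3 and 174. Its groups did not overlap either, and its rise of 1.39-fold (95% CI 1.15 to 1.68, adjusted p = 0.014) was lost without 2.2 ng/ml replicate 2 (adjusted p = 0.0665) or 10 ng/ml replicate 2 (0.0546).

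In DKO cells the greatest dose changes were those of Cars, Iars and Sars. Cars, the cysteine enzyme, read 96.6, 107 and 89.0 with 2.2 ng/ml and 186, 245 and 212 with 10 ng/ml. No array overlapped, and the rise was 2.19-fold (95% CI 1.78 to 2.70, adjusted p = 9.27e-06). Iars, the isoleucine enzyme of the complex, read 300.3, 414 and 351 and then 713, 815 and 765, a rise of 2.17-fold (95% CI 1.77 to 2.66, adjusted p = 7.09e-06). Sars read 274, 339 and 349 and then 558, 752 and 639, a rise of 2.02-fold (95% CI 1.68 to 2.43, adjusted p = 7.98e-06). Both were clear of overlap, as was Gars, which read 327, 321 and 376 and then 558, 706 and 632, a rise of 1.85-fold (95% CI 1.49 to 2.28, adjusted p = 0.000223). Yars, Nars, Mars1, Vars, Lars, Eprs and Farsb rose 1.85-fold, 1.66-fold, 1.64-fold, 1.55-fold, 1.52-fold, 1.43-fold and 1.36-fold. Of these, Lars was not called without 10 ng/ml replicate 2 (adjusted p = 0.0821), Eprs without 2.2 ng/ml replicate 1 (0.0733) or 10 ng/ml replicate 2 (0.087), and Farsb without any 1 of the 6 arrays other than 2.2 ng/ml replicate 3 (0.0628 to 0.273). Rars, the arginine enzyme, and Farsa did not pass, with log2 changes of -0.03 ± 0.14 and -0.20 ± 0.14 and overlapping arrays. The markers of other cells moved in part with the DKO 10 ng/ml group: the summed level of 4 B cell markers was 107 to 153 per array there and 84.2 to 93.5 with 2.2 ng/ml. Cd79b, at 74.5, 121 and 71.0 with 10 ng/ml, was the 1 of the 4 above background. The summed level of 5 dendritic cell markers was 252 to 272 per array with 10 ng/ml, 2 of 5 being above background, and 140.4 to 169.7 with 2.2 ng/ml. The summed level of the 5 T cell markers was 4465 to 4689 with 10 ng/ml and 5191 to 5511 with 2.2 ng/ml. The part of these marker lists in the result was not tested.

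**Figure D3:**
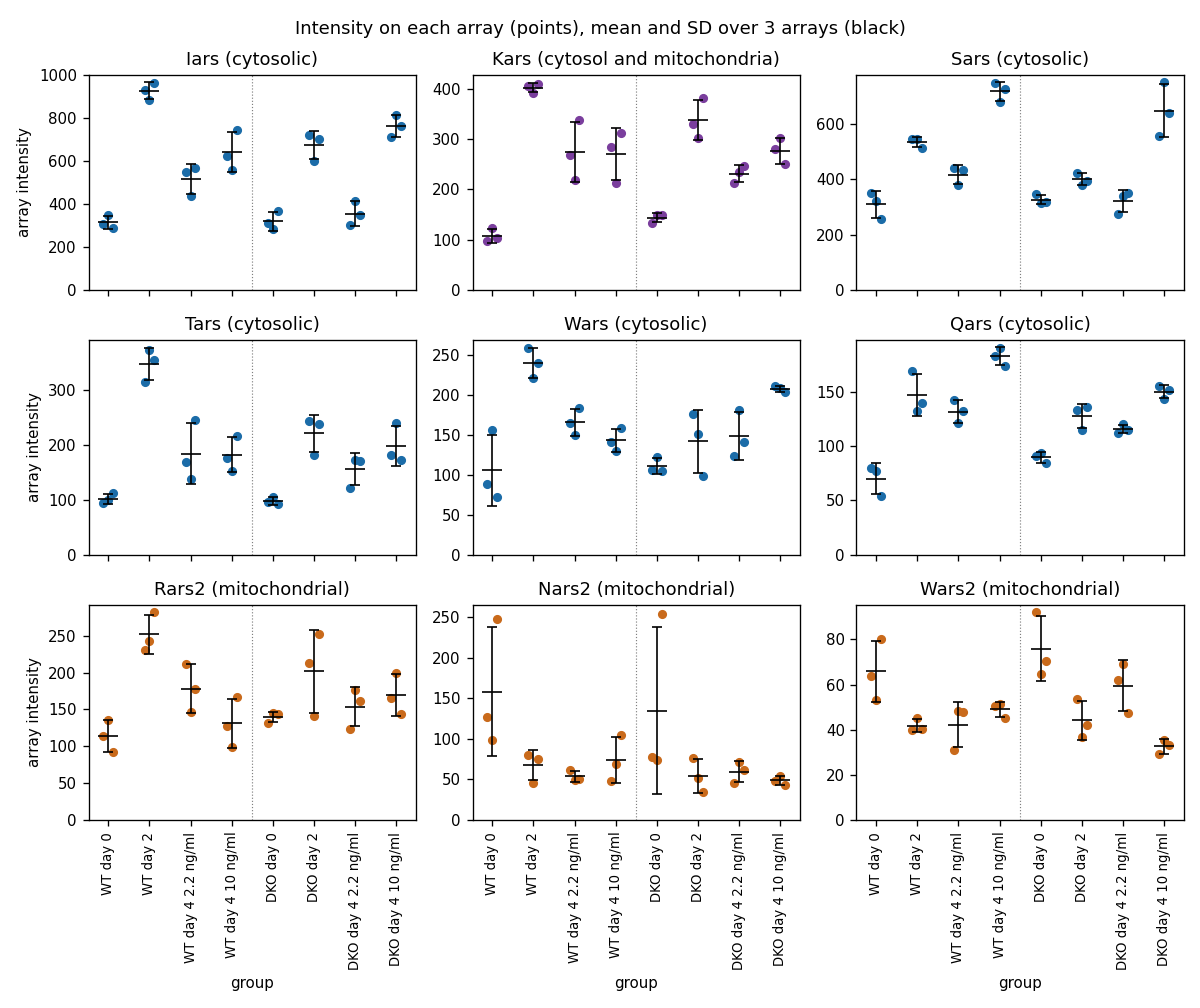
Intensity on each array (points, vertical axis on a linear scale from 0) in the 8 groups (horizontal axis), with the mean and SD over 3 arrays in black, for 6 cytosolic or shared and 3 mitochondrial synthetase genes. Sars and Qars are highest with 10 ng/ml in each genotype, Kars and Tars peak at WT day 2, Wars2 is lowest in DKO cells with 10 ng/ml, and Nars2 shows 1 high array at day 0 in each genotype.

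The effect of dose differed between genotypes in 6 members by the test of the difference itself. Iars was higher at the higher dose by 1.12 on the log2 scale in DKO and by 0.31 in WT cells, a difference of 0.80 ± 0.20 (adjusted p = 0.013). Its WT arrays read 547, 435 and 567 with 2.2 ng/ml and 622, 558 and 745 with 10 ng/ml and overlapped. For Cars the WT arrays read 150.2, 129 and 141 and then 173, 172 and 191, and the difference was 0.78 ± 0.21 (adjusted p = 0.0198). Yars read 169, 178 and 211 and 214, 217 and 219 in WT cells against 121, 141 and 115 and 211, 260.1 and 226 in DKO cells, a difference of 0.66 ± 0.20 (adjusted p = 0.0402). The DKO arrays were lower than the WT arrays at the low dose and spanned them at the high dose. Nars read 577, 507 and 629 and 647, 586 and 715 in WT and 449, 497 and 498 and 782, 889 and 726 in DKO cells, a difference of 0.54 ± 0.16 (adjusted p = 0.033). Gars read 448, 359 and 543 and 504, 492 and 525 in WT cells, and its difference was 0.69 ± 0.21 (adjusted p = 0.0443). The summed dendritic cell markers also moved in opposite directions with dose, from 156 to 217 per array with 2.2 ng/ml to 116 to 119.9 with 10 ng/ml in WT cells (3 and then 1 of 5 above background) and upward in DKO cells, as given above, and their part in these differences was not tested. In all 5 the DKO mean was below the WT mean with 2.2 ng/ml and above it with 10 ng/ml. These were 4 of 16 cytosolic members and Gars, where 3.56% of all genes were called in this direction.

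Wars2 was the only member called in the opposite direction. It read 30.9, 48.1 and 47.7 with 2.2 ng/ml and 50.5, 51.2 and 45.2 with 10 ng/ml in WT cells, which overlapped. In DKO cells it read 62.2, 69.1 and 47.2 and then 29.1, 35.6 and 33.1, without overlap, a fall of 1.81-fold (95% CI 1.39 to 2.36, adjusted p = 0.00357). The difference between genotypes was -1.09 ± 0.26 on the log2 scale (adjusted p = 0.00994), 1 of 16 mitochondrial members where 3.38% of all genes were called lower, and it passed under all 21 alternatives (adjusted p = 0.00295 to 0.0393). Its DKO arrays with 10 ng/ml lay close to the background guide of 28.6. The other 5 differences lost their calls more often. Each lost its call when WT 2.2 ng/ml replicate 3 and WT day 2 replicate 3 were left out together (adjusted p = 0.0501 to 0.173). Iars lost it also without DKO 2.2 ng/ml replicate 1 (0.0518), and Cars without WT 2.2 ng/ml replicate 1 (0.0566), DKO 2.2 ng/ml replicate 3 (0.0551) or DKO 10 ng/ml replicate 2 (0.0705). Nars lost it without WT 2.2 ng/ml replicate 1 (0.0685) or 3 (0.103), WT 10 ng/ml replicate 1 (0.0655) or 2 (0.097), DKO 2.2 ng/ml replicate 1 (0.0934) and DKO 10 ng/ml replicate 1 (0.0554) or 2 (0.111). Yars lost it without WT 2.2 ng/ml replicate 3 (0.122), any 1 of the WT 10 ng/ml arrays (0.0575 to 0.0816), DKO 2.2 ng/ml replicate 1 (0.091) or 3 (0.0979) and DKO 10 ng/ml replicate 2 (0.122) or 3 (0.062). Gars lost it without WT 2.2 ng/ml replicate 1 (0.0856) or 3 (0.151), any 1 of the WT 10 ng/ml arrays (0.055 to 0.089), DKO 2.2 ng/ml replicate 1 (0.0997) or 2 (0.102) and DKO 10 ng/ml replicate 2 (0.129) or 3 (0.0778). Gars also lost its call when the replicate number was added to the fit as a block. The 4 cytosolic calls became 1 without DKO 2.2 ng/ml replicate 1 or DKO 10 ng/ml replicate 2. They became 2 without WT 2.2 ng/ml replicate 1 or 3, WT 10 ng/ml replicate 1 or 2, or DKO 2.2 ng/ml replicate 3.

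**Figure D4:**
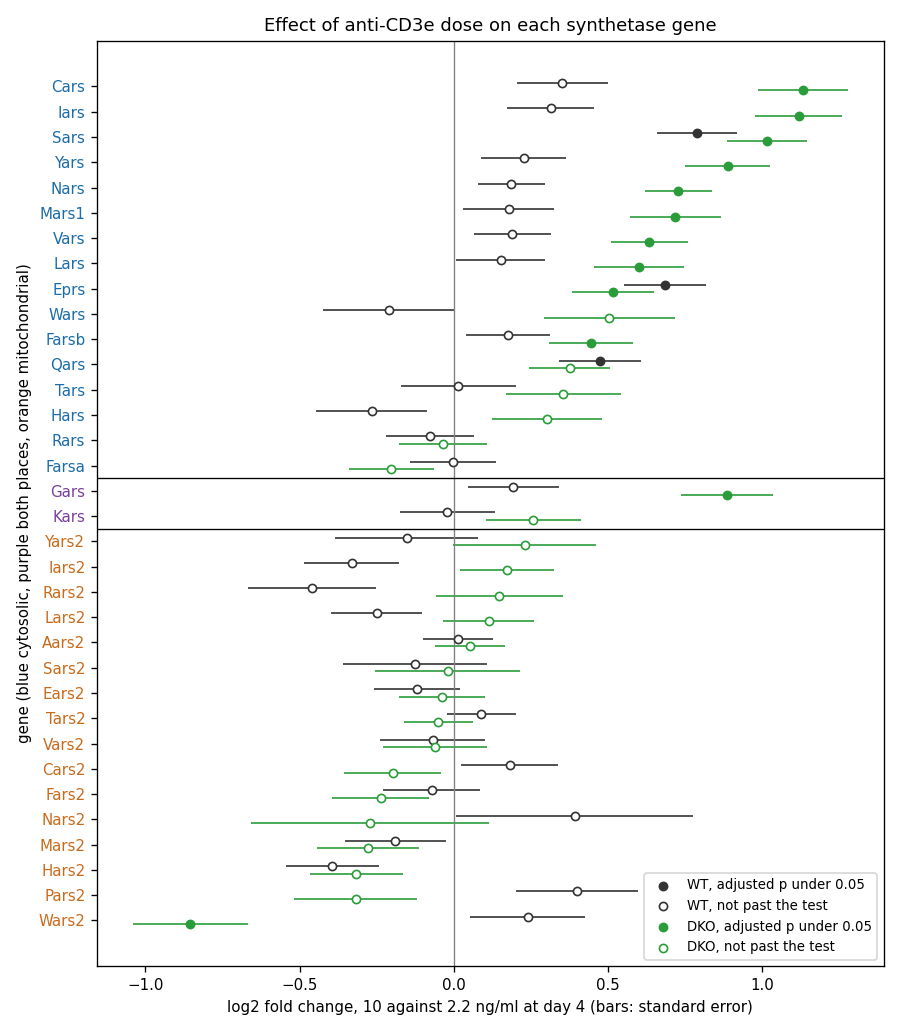
Log2 fold change between 10 and 2.2 ng/ml of anti-CD3e at day 4 (horizontal axis, bars show the standard error) for each synthetase gene (vertical axis) in WT and in DKO cells. The DKO points of Cars, Iars and Sars lie above 1 and that of Wars2 at -0.85, while in WT cells the greatest changes are those of Sars at 0.79 and Eprs at 0.68.

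Between genotypes at day 4 limma called 3 cytosolic members at the low dose and 0 at the high dose. With 2.2 ng/ml Cars, Iars and Yars were lower in DKO cells, 3 of 16 cytosolic members against 2.06% of all genes (1.65% were higher), by 1.44-fold (95% CI 1.17 to 1.77, adjusted p = 0.0424), 1.46-fold (95% CI 1.19 to 1.78, adjusted p = 0.0285) and 1.48-fold (95% CI 1.21 to 1.80, adjusted p = 0.0183). Cars read 150.2, 129 and 141 in WT and 96.6, 107 and 89.0 in DKO cells, and Iars 547, 435 and 567 and 300.3, 414 and 351. No arrays overlapped for any of the 3. WT 2.2 ng/ml replicate 3 and DKO 2.2 ng/ml replicates 1 and 3 were each needed for all 3 calls, and without them the adjusted p ran from 0.0751 to 0.189. Cars also lost its call without WT replicate 1 (0.174) or DKO replicate 2 (0.0589), and Iars without WT replicate 1 (0.125). Among mitochondrial members limma called 0 of 16, with 1 at an unadjusted p under 0.05 (12.8% of all genes). With 10 ng/ml 4 of the 16 cytosolic members had an unadjusted p under 0.05, as did 22.1% of all genes, and 6.68% of all genes were called higher. Among the cytosolic members 2 were called, both higher, without WT replicate 3 and 1 without DKO replicate 3. Limma called 1 of 16 mitochondrial, Wars2, which was 1.50-fold (95% CI 1.15 to 1.96, adjusted p = 0.0368) lower in DKO cells (6.09% of all genes were lower). That call was lost without WT replicate 1 (0.11) or 2 (0.111) or any 1 of the 3 DKO arrays (0.0505 to 0.154), and 2 members were called lower without WT replicate 3. Lars, the leucine enzyme, and Wars had the greatest estimates in the other direction, at 0.43 ± 0.14 (adjusted p = 0.0537) and 0.54 ± 0.21 (adjusted p = 0.108).

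Counts for dose were also read by the ATF4-responsive list, which was written with earlier results of these data known and so gives no independent support. Of its 11 cytosolic or shared genes 9 rose with dose in DKO cells, with a median log2 change of 0.73, against 2 of the 7 others, with a median of 0.30, and 4.47% of all genes. In WT cells the counts were 2 of 11 and 1 of 7, against 7.64% of all genes. At WT day 2, against day 0, 11 of 11 and 7 of 7 rose, against 19.7% of all genes, with medians of 1.54 and 1.61. All 5 genes with a dose difference between genotypes in the positive direction stood in the list, and 0 of the 7 others were called, where 3.56% of all genes were called in this direction. Whether the list and the others differ was not tested. The 4 genes with a TGATGNAA match, Iars, Tars, Yars and Gars, were mixed: Tars read 122, 173 and 171 and 182, 239.7 and 172 across the DKO doses, with overlap, and did not pass (log2 change 0.35 ± 0.19, adjusted p = 0.329).

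Other genes of the ATF4 pathway also rose with dose, in both genotypes. Of 15 measured, 9 rose in WT and 9 in DKO cells, where 7.64% and 4.47% of all genes rose. Atf4 itself read 232, 222 and 298 with 2.2 ng/ml and 543, 618 and 590.4 with 10 ng/ml in DKO cells, a rise of 2.35-fold (95% CI 1.94 to 2.84, adjusted p = 8.13e-07). All high-dose arrays were above all low-dose ones. Asns, asparagine synthetase and a standard ATF4 target, read 85.0, 109 and 124 and then 420.3, 595 and 499.6 in DKO cells and 172, 161 and 194 and then 373, 340.2 and 360.4 in WT cells. It rose 4.77-fold and 2.04-fold, and the difference between genotypes was 1.22 ± 0.27 on the log2 scale (adjusted p = 0.00431). Chac1, which degrades glutathione, rose 5.73-fold and 2.19-fold, a difference of 1.39 ± 0.26 (adjusted p = 0.000979). For Atf4 that difference did not pass, at 0.55 ± 0.19 (adjusted p = 0.0879). Of 9 amino acid transporters 4 rose with dose in DKO cells, and 2 rose and 1 fell in WT cells (7.52% of all genes fell). Slc1a5, Slc7a5 and Slc1a4, which carry neutral amino acids, had a positive dose difference between genotypes, at 1.41, 1.02 and 0.96. Of all genes 3.56% were called in this direction, and the differences of the other transporters are not given here. At day 2 Asns, Atf4 and Slc3a2, the heavy chain that partners Slc7a5, were lower in DKO than in WT cells, by 1.85-fold, 1.52-fold and 1.43-fold. Of all genes 1.68% were called lower there. The other pathway and transporter genes are not described here for that comparison.

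The enzymes of the multi-tRNA synthetase complex were set beside those outside it. At WT day 2 all 7 measured enzymes of the complex rose, with a median log2 change of 1.52, as did all 11 enzymes outside it, with a median of 1.61, where 19.7% of all genes rose. With dose in DKO cells 4 of 7 and 7 of 11 rose, against 4.47% of all genes. The 3 scaffold proteins of the complex rose with the enzymes at WT day 2. Eef1e1 read 56.0, 103 and 97.3 at day 0 and 389.7, 373 and 421 at day 2, with no overlap, a rise of 4.78-fold (95% CI 3.33 to 6.87, adjusted p = 8.34e-08). Aimp2 and Aimp1 rose 4.00-fold and 3.46-fold. With dose Aimp1 rose in both genotypes, 1.55-fold in WT and 1.52-fold in DKO cells, and the other scaffold genes did not pass.

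Genes of neighbouring steps of translation also rose at WT day 2, when 19.7% of all genes rose and 20.5% fell. Of 18 measured genes of tRNA processing and export 15 rose and 0 fell at WT day 2, among them Nsun2, a tRNA methyltransferase, at 3.26-fold, and Xpot, the tRNA exporter, at 2.98-fold. With dose 0 of the 18 were called in DKO cells, where 4.47% of all genes rose and 3.68% fell. In WT cells 1 rose and 2 fell with dose, where 7.64% of all genes rose and 7.52% fell. Of 9 mitochondrial translation factors 7 rose at WT day 2, where 6 of 16 mitochondrial synthetases did. Tufm, the mitochondrial elongation factor Tu, read 69.2, 117 and 72.3 and then 324, 331 and 296, a rise of 3.79-fold (95% CI 2.80 to 5.13, adjusted p = 5.78e-08). Of 4 measured cytosolic elongation factors 2 rose, Eef1d at 1.61-fold and Eef1b2 at 1.27-fold. Of 7 measured proofreading and synthetase-like genes 5 rose and 0 fell, led by Aarsd1 at 3.49-fold, and of 4 genes that amidate or formylate mitochondrial tRNA 2 rose, Gatc and Qrsl1. Among 15 ATF4 pathway genes 7 rose and 0 fell, and among 9 transporters 6 rose and 1, Slc38a2, fell. Of 9 genes of the MYC and MAX network 4 rose and 3 fell, while all 5 interferon response genes fell. Myc, which is known to drive growth genes in activated T cells, rose 2.55-fold at WT day 2 and did not pass with dose in DKO cells (log2 change 0.33 ± 0.13, adjusted p = 0.146). The second probe set of Iars was likewise highest at WT day 2 and next highest in DKO cells with 10 ng/ml, with means of 193 at WT day 0, 505 at WT day 2, 185 in DKO cells with 2.2 ng/ml and 444 with 10 ng/ml.

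The spread within groups was shared across members. WT 2.2 ng/ml replicate 3 was the highest of its group for 13 of 16 cytosolic members and replicate 2 the lowest for 13. DKO 10 ng/ml replicate 2 was the highest for 14, and DKO 2.2 ng/ml replicate 1 the lowest for 13. The cytosolic genes are thus not independent readings of a group. Aars2 stayed between 24.6 and 34.8 on every array and was not called in any of the 18 comparisons in limma on the deposited values. On values normalised again it was called higher at WT day 2, by 0.39 on the log2 scale after cyclic loess (adjusted p = 0.00626) and 0.38 after quantile normalisation (0.0106). Fars2, Lars2, Sars2 and Vars2, the mitochondrial phenylalanine, leucine, serine and valine enzymes, were not called on the deposited values with all arrays either, with group means of 51.8 to 72.4, 38.2 to 47.9, 79.7 to 118 and 37.6 to 47.5. Under alternatives Sars2 was called higher at WT day 2 with the compared groups alone (adjusted p = 0.0424) or without day 2 replicate 1 (0.0264), and Lars2 lower in WT cells with 10 ng/ml than at day 2 without 10 ng/ml replicate 1 (0.0273). Fars2 was called lower in DKO cells at day 2 than at day 0 without replicate 1 of day 0 (0.0198) or of day 2 (0.0228), with 10 ng/ml than at day 0 without day 0 replicate 1 (0.0445), and than in WT cells at day 2 without DKO replicate 1 (0.0378).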

How the data were processed

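RNA of 24 samples was measured on Affymetrix mouse gene arrays, in 8 groups of 3 taken from the labels. Per the submitters' processing notes, the authors made the deposited intensity values with RMA, and the values show a linear scale from 1.95 to 14644.915. No source used here gives the RMA version or an array batch. Of 35556 probe sets 21789 carried 1 gene symbol in the platform annotation, 1621 carried several and 12146 were not listed. The brightest probe set of each gene, by mean log2 intensity, gave 19938 genes.

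The log2 values were fitted in limma 3.58.1 (R 4.3.3) with a mean per group over all 24 arrays, giving 16 residual degrees of freedom, and 18 contrasts. P-values were adjusted by Benjamini-Hochberg over all genes within each contrast, and a gene was called at an adjusted p under 0.05. The fit was tested on simulated data. Array medians ran from 26.4 to 31.6. The number of arrays limits the precision, and array values give no counting interval.

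Members and gene lists were chosen with earlier results of these data known. Array values are given for up to 3 called members with the greatest rise and fall per class and contrast, for members called in an interaction, for Batf and Batf3, and for list genes with the smallest p. Farsa, Rars, Tars in DKO cells and members that passed no test were added after their values were seen. Vars at DKO day 2 is also given, though it was not among the 3 greatest rises there. Alternatives were a filter on dim probe sets, cyclic loess or quantile normalisation, the mean of probe sets, the compared groups alone, trended and robust moderation, array weights, a replicate block, and leaving out each array. Leaving out WT 2.2 ng/ml replicate 3 and WT day 2 replicate 3 together was chosen after seeing the data. Promoter windows came from RefSeq (GRCm38.p6).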

Additional observations from a re-analysis of the deposited data

Results flagged for a closer look

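The change from 2.2 to 10 ng/ml of anti-CD3e at day 4 differed between genotypes, by the interaction term in limma, in 6 synthetase genes. The difference (DKO change minus WT change, log2 scale) was 0.80 for Iars, 0.78 for Cars, 0.69 for Gars, 0.66 for Yars, 0.54 for Nars and -1.09 for Wars2. Nothing was tested as an explanation. Outlying arrays were not tested for in these groups of 3.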

How the results depend on the processing

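All 16 cytosolic calls at WT day 2 and the 13 at DKO day 2 kept their number when any 1 array was left out. Leaving out 1 array moved the other cytosolic counts within 13 to 16 and 14 to 15 (WT day 4 against day 0, 2.2 and 10 ng/ml), 7 to 9 and 15 to 15 (DKO), 10 to 12 and 8 to 12 (WT day 4 against day 2), 5 to 7 and 1 to 1 (DKO), 2 to 3 and 7 to 10 (dose in WT and DKO). For genotype the ranges were 0 to 0 (day 0), 0 to 1 (day 2), 0 to 4 (2.2 ng/ml) and 0 to 2 (10 ng/ml), and for the interactions 0 to 1 (day 2) and 1 to 5 (dose). Mitochondrial counts moved within 4 to 7 (WT day 2), 1 to 5 and 3 to 6 (WT day 4 against day 0), 3 to 5 (DKO day 2), 1 to 3 and 2 to 7 (DKO day 4 against day 0), 1 to 2 and 3 to 5 (WT day 4 against day 2), 0 to 0 and 0 to 1 (DKO), 0 to 2 and 1 to 1 (dose), 0 to 0, 0 to 1, 0 to 0 and 0 to 2 (genotype, in the same order) and 0 to 0 and 1 to 1 (interactions). The balance of higher and lower mitochondrial calls turned without DKO day 0 replicate 1 (5 calls at day 2 and 3 with 2.2 ng/ml) and without DKO day 2 replicate 1 (5 calls at day 2).

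Other settings moved counts by over 1.5 times as follows, and the cause was not tested. With the compared groups alone the mitochondrial count was 3 in place of 5 (DKO day 2 against day 0), 1 in place of 0 and 0 in place of 1 (DKO with 2.2 and 10 ng/ml against day 2). The cytosolic genotype counts were then 1, 0 and 1 in place of 2, 3 and 0 (day 2, 2.2 and 10 ng/ml). The filter on dim genes gave 1 mitochondrial call for DKO 2.2 ng/ml against day 2, 2 cytosolic calls for DKO 10 ng/ml against day 2, and 1 cytosolic genotype call with 10 ng/ml. Cyclic loess gave 3 cytosolic calls for DKO 10 ng/ml against day 2, 5 for dose in WT and 2 mitochondrial genotype calls with 10 ng/ml. Quantile normalisation gave 2 for DKO 10 ng/ml against day 2, and genotype counts of 0 at day 2, 2 (cytosolic) and 0 (mitochondrial) with 10 ng/ml. Array weights gave 3 for DKO 10 ng/ml against day 2, 1 mitochondrial call for dose in WT, 4 cytosolic genotype calls at day 2, and 3 cytosolic and 3 mitochondrial with 10 ng/ml. Trended and robust moderation gave 1 cytosolic genotype call with 10 ng/ml. Without both WT 2.2 ng/ml replicate 3 and WT day 2 replicate 3, an alternative chosen after seeing the data, the cytosolic genotype counts at day 2 and with 2.2 ng/ml and the dose interaction count were each 0.

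Arrays with the same replicate number in different groups showed little shared deviation over all genes. Of 84 such pairs 4 correlated over 0.1 in their deviations from the group means. The median was 0.000998 and the range -0.152 to 0.264. These correlations cannot show whether same-numbered arrays share a mouse, a culture or a batch. The replicate block left all 36 counts within 1.5 times of their value, with 16 cytosolic calls at WT day 2, and changed the call of Gars in the dose interaction (adjusted p = 0.0579) and of Ears2 at WT day 2 (0.038). Levels near the background guide of 28.6, as in Aars2, Pars2 and Wars2, limit what a fold change can show.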
